A study of Mus musculus with 15 samples.

Results

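The genes described here are 51 genes of DNA replication and S phase, the part of the cell cycle in which the chromosomes are copied. They were taken by symbol from a list of replication genes and followed in mouse plasma cells, out of 22339 genes in the deposited table. This list, its roles and the other gene lists below were chosen with earlier results of these data known. The counts called below are therefore not an independent test of them. Each symbol matched a single gene, and all 51 passed the filter used for testing, which asked for a level of 1 TPM or more in 3 or more of the 15 libraries. TPM is a transcript's share of a library after correction for transcript length, given here after immunoglobulin genes were set aside. In all, 38 of the 51 reached 1 TPM in every library and 0 reached it in libraries of a single group only. The thinnest was Chaf1a, with 1 to 77.7 estimated reads per library, while Rrm2 had 299 to 10954.

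Plasma cells are the antibody-secreting end stage of the B lineage. All groups came from untreated, unimmunised male C57Bl6/N mice aged 8 to 12 weeks, and all cells were sorted as CD138-high, Ly6g- and CD11c-. Spleen cells were split by B220, a CD45 form carried by B cells, and by 2NBDG, a fluorescent glucose analogue that marks glucose uptake, into the 2NBDG- groups B220+2NBDG- and B220-2NBDG- and the 2NBDG+ groups B220+2NBDG+ and B220-2NBDG+. Bone marrow plasma cells (BMPC) were B220- and 2NBDG+. Each group had 3 biological replicates of about 30000 cells sorted in 2 rounds. No label gives an age or a mouse to a single library, or says how many mice went into a sort.

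DNA replication starts at origins, which are licensed in G1 by the origin recognition complex, Cdc6 and Cdt1 loading the ring-shaped MCM helicase. Kinases and firing factors then switch the helicase on, polymerases copy both strands around the sliding clamp PCNA, and ribonucleotide reductase and its partners supply the nucleotides. Many of these genes are targets of E2F transcription factors. Activated B cells divide as plasmablasts on their way to becoming plasma cells, and mature plasma cells are known for having left the cell cycle.

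The libraries held 17269500 to 24826000 estimated reads, of which 4399560 to 9910820 lay outside immunoglobulin genes. Across genes, replicate 3 of B220+2NBDG- correlated less well with the other 2 of its group (Pearson r of 0.939 and 0.946) than any other pair of replicates did (0.965 to 0.976). Summed plasma cell markers reached 31008 to 45629 TPM in B220+2NBDG-, 53101 to 66133 in the intermediate spleen groups, 82913 to 92262 in B220-2NBDG+ and 90738 to 130983 in BMPC. Most of each sum was Jchain, at 23142 to 34440 TPM in B220+2NBDG-, 76026 to 84898 in B220-2NBDG+ and 86131 to 124923 in BMPC. Tnfrsf17 was also higher in B220-2NBDG+ and BMPC than in B220+2NBDG-. Mzb1 went the other way over these groups (6566 to 10035, 5397 to 5959 and 3560 to 5137 TPM), and Irf4 and Prdm1 overlapped between them. Summed T cell markers were 508, 292 and 105 TPM in the B220+2NBDG- replicates and at most 153 in any other library. Summed erythroid markers stood between 2072 and 6691 TPM in replicate 3 of each spleen group and at or below 412 in the other spleen libraries. Where replicates of a group share a mouse or a sort the p-values below measure only the spread between these libraries.

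The sequences that follow show the best known shared feature of such genes, the E2F site, in front of members that differ in what the data show. RefSeq promoters on GRCm38.p6, from 250 bases before to 50 bases after a transcription start, were matched by symbol to 41 of the 51 members, with 50 promoters between them. Those without an entry are Atad2, Ccna2, Ccne2, Esco2, Gins1, Gins2, Gins4, Mcm4, Pole and Prim2. The search used 4 forms of the E2F consensus (TTTCCCGC, TTTGGCGC, TTTCGCGC and TTTGCCGC) on both strands, where matches to different forms may overlap. A form was found in 18 of the 50 member promoters (36%) and in 744 of all 32851 promoters of that length (2.26%). Windows around matches upstream of the RefSeq start are given 5′ to 3′ on the strand of the gene, and capitals mark the bases that matched.
Cdc6 (chr11:98907993-98908040, plus strand): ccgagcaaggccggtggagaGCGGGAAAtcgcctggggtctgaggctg
Mcm5 (chr8:75109336-75109387, plus strand): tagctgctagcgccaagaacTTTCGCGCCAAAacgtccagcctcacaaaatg
Mcm7 (chr5:138172030-138172059, minus strand): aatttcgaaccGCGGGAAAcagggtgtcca
Uhrf1 (chr17:56304108-56304155, plus strand): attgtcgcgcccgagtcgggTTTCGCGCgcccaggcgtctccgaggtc
Mcm6 (chr1:128359725-128359835, minus strand): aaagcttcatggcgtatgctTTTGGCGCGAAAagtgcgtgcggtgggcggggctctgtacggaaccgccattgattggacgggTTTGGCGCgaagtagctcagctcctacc
Dnmt1 (chr9:20952824-20952853, minus strand): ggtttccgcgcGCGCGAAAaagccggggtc
The first 4 belong to genes that fell in both spleen comparisons below, and the last 2 to genes that were not called in either. The Mcm5 and Mcm6 windows lie upstream of every GENCODE M21 transcript. Those of Cdc6 and Uhrf1 lie in introns of longer transcripts of the same genes, that of Dnmt1 overlaps a Dnmt1 exon, and that of Mcm7 overlaps exons of Mcm7 and of its divergent neighbour Ap4m1. A match occurred in 10 of 24 members with a promoter that were lower in 2NBDG+ cells and in 8 of 17 that were not called, and in 13 of 29 and 5 of 12 for B220. The CCAAT box (CCAAT), searched the same way, was in 56% of member promoters and 37.4% of all, and the cell cycle element TTTGAA in 20% and 17.9%. A match is a string of letters and not a measured binding site.

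Replication transcripts were most abundant in the spleen cells that kept B220 and took up little 2NBDG, and least abundant in the spleen cells with the opposite phenotype. The summed level of the 51 genes was 1998, 2221 and 1672 TPM in the B220+2NBDG- replicates. It was 697, 961 and 1037 TPM in B220-2NBDG-, and 822, 1203 and 926 TPM in B220+2NBDG+. In B220-2NBDG+ it was 470, 454 and 478 TPM, and in BMPC 518, 611 and 578 TPM. The lowest B220+2NBDG- library stood above every library of the other groups, the intermediate groups overlapped each other, and the highest B220-2NBDG+ library stood below every BMPC library. As a share of the B220+2NBDG- mean the groups held 45.7% (B220-2NBDG-), 50.1% (B220+2NBDG+), 23.8% (B220-2NBDG+) and 29.0% (BMPC). In sorted bulk RNA, fewer dividing cells and less of these transcripts in each cell cannot be told apart.

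**Figure D1:**
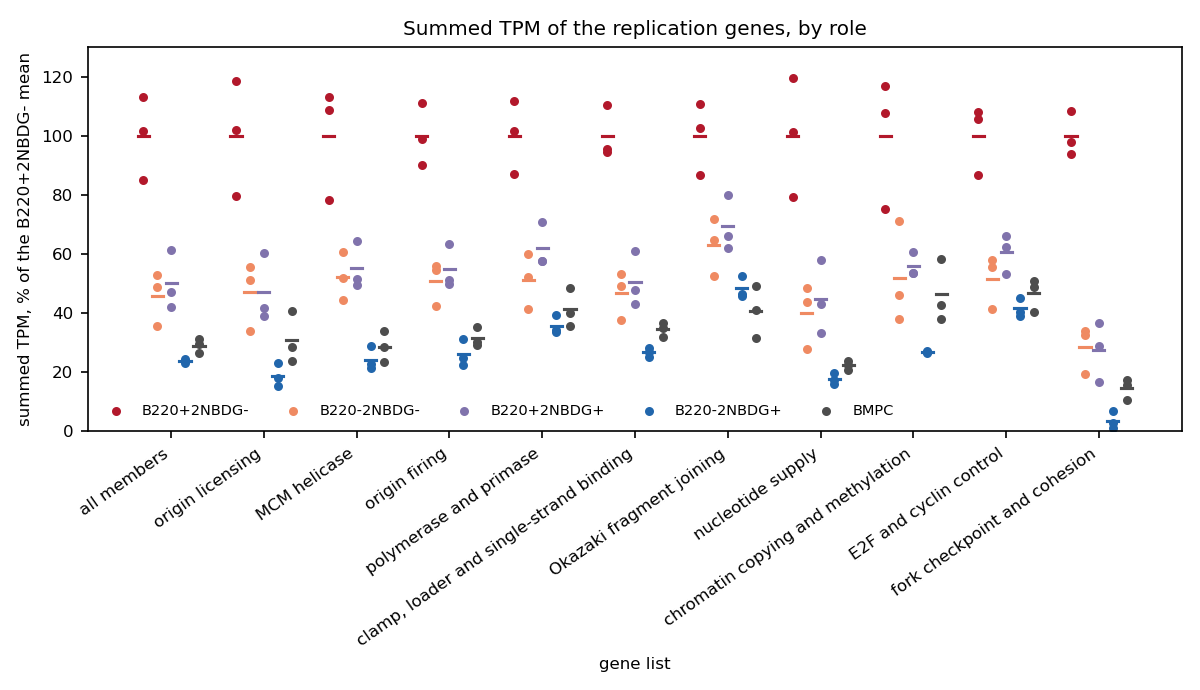
Summed TPM of the members of each role (x axis) in each library, as a percentage of the mean of the 3 B220+2NBDG- libraries (y axis), with points for libraries and dashes for group means. For all members the B220-2NBDG+ mean lies at 23.8%, and it runs from 3.6% for fork checkpoint and cohesion to 48.4% for Okazaki fragment joining.

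Nearly every member shared the group of its highest mean, and fewer the group of the lowest. The highest group mean was in B220+2NBDG- for 48 of 51 genes, the exceptions being Gins4, Rfc5 and E2f1. The lowest was in B220-2NBDG+ for 39 and in BMPC for 10, and among the 4 spleen groups B220-2NBDG+ was lowest for 49. In 31 members every B220+2NBDG- library exceeded all 12 other libraries, which held for 562 of the 11246 tested genes (5%).

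**Figure D2:**
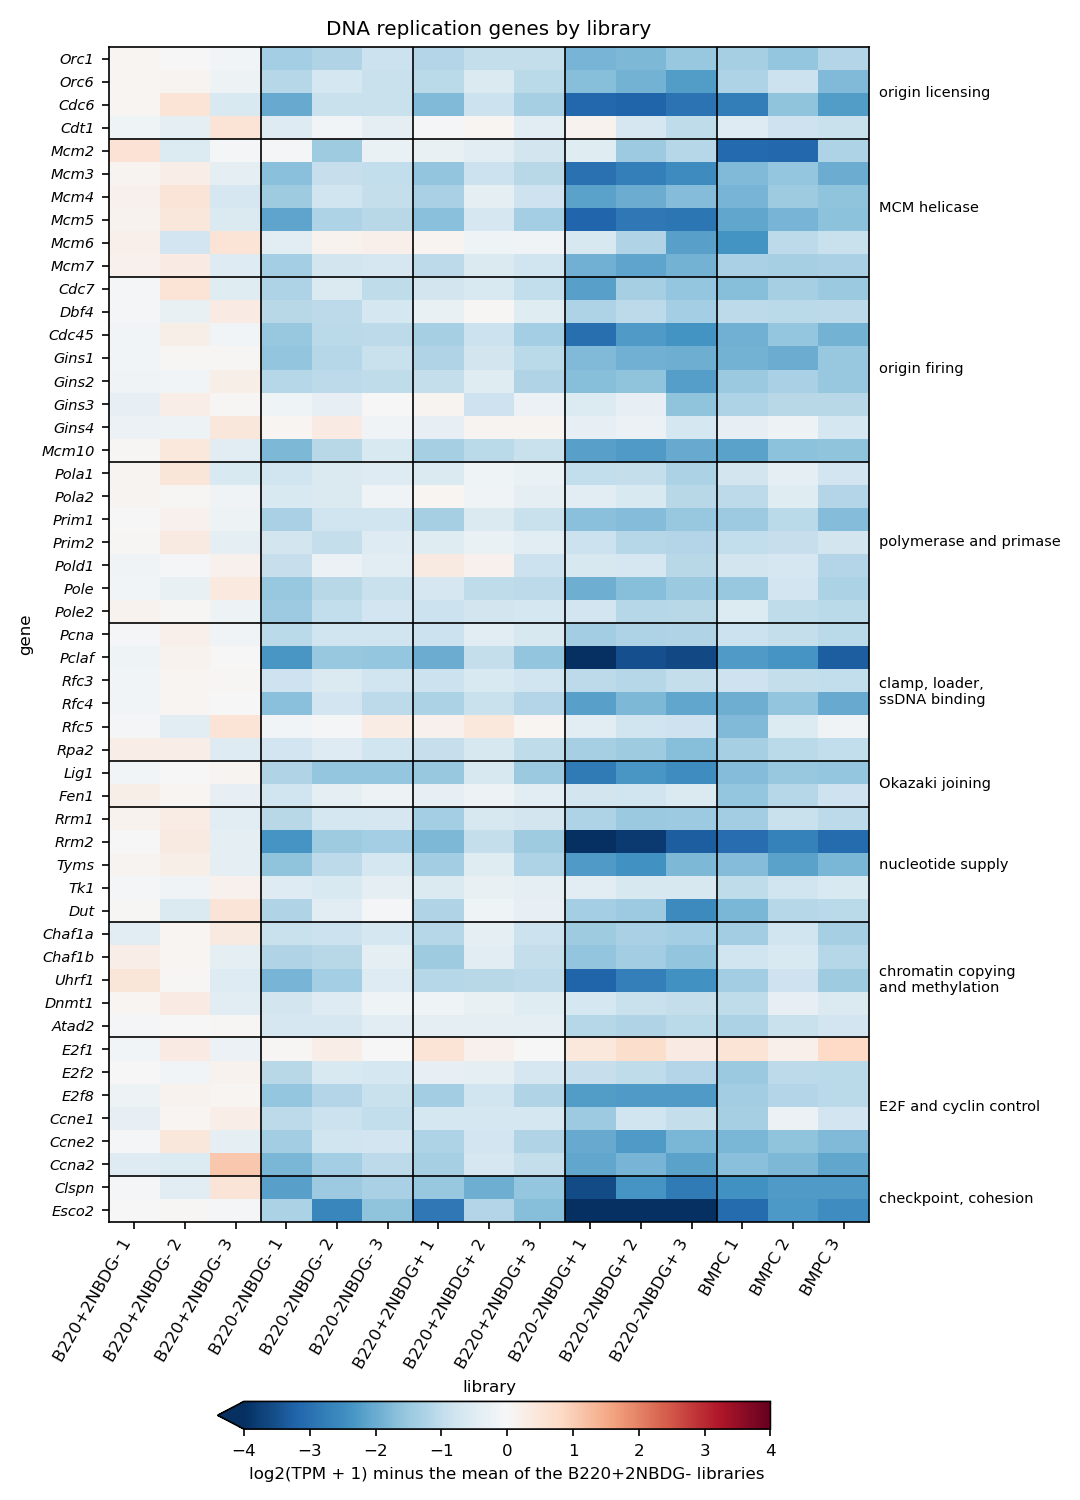
Level of each of the 51 genes (y axis, grouped by role) in each of the 15 libraries (x axis), as log2(TPM + 1) minus the mean of the 3 B220+2NBDG- libraries. Blue is lower, and differences past the end of the scale take its end colour. The B220-2NBDG+ columns have the lowest mean for 39 of the genes, and the row of E2f1 stays near or above its B220+2NBDG- mean.

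With 2NBDG+ set against 2NBDG- spleen cells, averaged over B220, 31 of the 51 genes were lower and 0 were higher at an adjusted p under 0.05 (limma, Benjamini-Hochberg over all tested genes). Calls in either direction made up 6.46% of all tested genes and lower ones 4.44%. The median log2 fold change of the members was -0.78, against -0.04 for all genes, on the log2(TPM + 1) scale, which understates changes of low genes. In 29 members the 2NBDG+ libraries lay below the 2NBDG- libraries without overlap in both B220 strata, as they did for 3.23% of all genes, and in 0 they lay above, as for 2.3%. With replicates 1 and 2 only, which leaves out the libraries of high erythroid signal, 17 members were lower and 0 higher. That setting also has fewer libraries, and its share of all genes called is not given here.

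With B220- set against B220+ spleen cells, averaged over 2NBDG, 38 of the 51 were lower and 0 were higher, where calls in either direction made up 8.65% of all tested genes and lower ones 5.85%. The members' median log2 fold change was -0.90 and that of all genes -0.09. In 33 members the libraries did not overlap in either 2NBDG stratum, compared with 5.57% of all genes. All 31 genes lower in 2NBDG+ cells were among the 38. Both comparisons use the same 12 libraries and the same estimate of each gene's spread, so their calls are not independent. The 7 genes lower only in the B220 comparison were Dbf4, Pola1, Prim2, Pole2, E2f2, Ccne1 and Ccna2. Whether their 2NBDG and B220 differences differ from each other was not tested. The 13 genes called in neither were Cdt1, Mcm2, Mcm6, Gins3, Gins4, Pola2, Pold1, Rfc5, Fen1, Tk1, Dut, Dnmt1 and E2f1. Of all 51, E2f1 alone had a fold change above 0 in both comparisons.

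**Figure D3:**
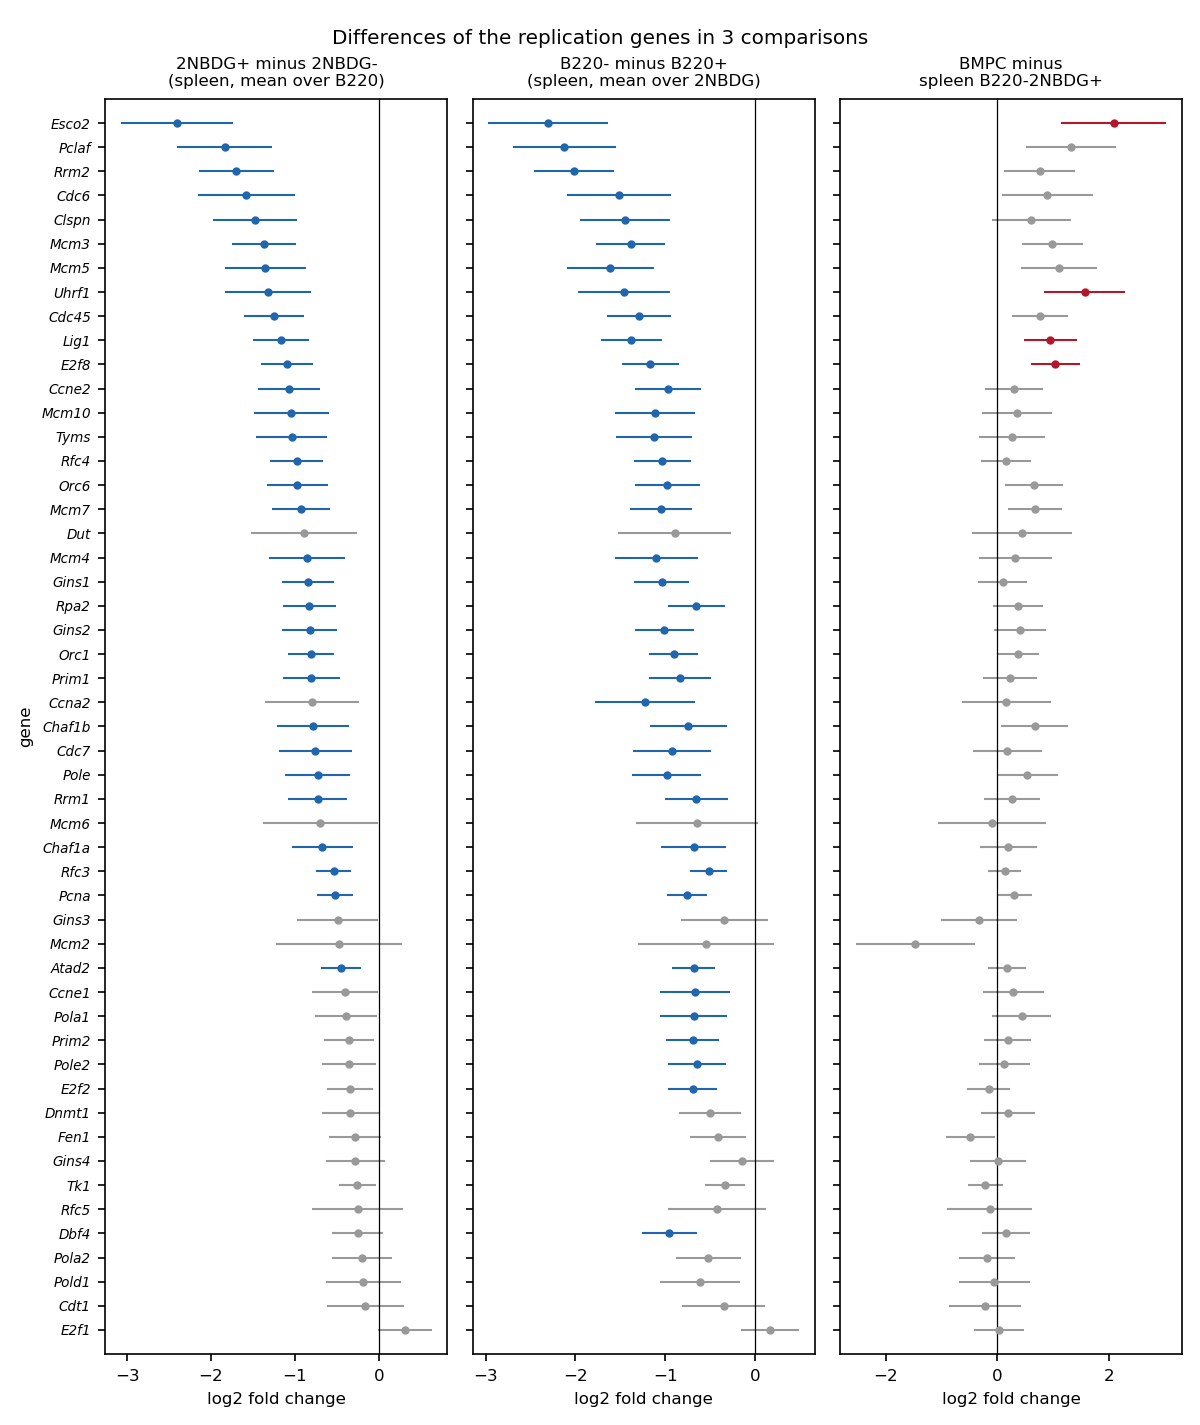
Log2 fold change of each gene (y axis) in 3 comparisons (x axes), with 95% intervals from the limma fit. Blue points were called lower, red higher and grey not called. In the 2NBDG panel 31 points are blue, in the B220 panel 38, and in the bone marrow panel 4 are red.

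Among the genes that license origins, 3 of 4 fell in both comparisons. Cdc6 (ENSMUSG00000017499.15, chr11:98907801-98923940), the ATPase that helps load MCM rings, stood at 26.1, 36.5 and 15.9 TPM in the B220+2NBDG- replicates, 5.43, 12.99 and 12.97 in B220-2NBDG-, 6.66, 13.1 and 9.18 in B220+2NBDG+, 1.90, 1.80 and 2.37 in B220-2NBDG+ and 2.78, 7.44 and 4.50 in BMPC. The B220-2NBDG+ libraries were the lowest of the 15 and the B220+2NBDG- libraries the highest, and the intermediate groups overlapped. Its log2 fold change was -1.58 ± 0.27, adjusted p = 0.00369 for 2NBDG and -1.52 ± 0.27, adjusted p = 0.00345 for B220. Orc6, a subunit of the origin recognition complex and the most abundant gene of the role, stood at 33.9, 34.9 and 27.6 TPM in the B220+2NBDG- replicates, 13.9, 19.2 and 16.8 in B220-2NBDG-, 14.7, 21.3 and 14.5 in B220+2NBDG+, 9.06, 7.94 and 5.95 in B220-2NBDG+ and 12.97, 17.2 and 8.67 in BMPC. Its 2NBDG difference was -0.97 ± 0.17, adjusted p = 0.00433, and again B220+2NBDG- did not overlap any other group. Orc1, the largest subunit of the complex, fell to a mean of 0.206 TPM in B220-2NBDG+ from 2.96 ± 0.27 (SD, n = 3) in B220+2NBDG-. Cdt1, the other loading factor, whose amount is known to be controlled largely by protein destruction, gave -0.16 ± 0.21, adjusted p = 0.733 for 2NBDG, with the libraries of the 4 spleen groups overlapping.

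Of the 6 MCM subunits that form the helicase ring, Mcm3, Mcm4, Mcm5 and Mcm7 fell in both comparisons and Mcm2 and Mcm6 were called in neither. The Mcm4 call for 2NBDG was lost in 9 of the alternatives. Mcm5 (ENSMUSG00000005410.6, chr8:75109569-75128439) stood at 57.6, 71.6 and 35.2 TPM in the B220+2NBDG- replicates, 11.3, 21.6 and 23.9 in B220-2NBDG-, 15.9, 32.3 and 19.9 in B220+2NBDG+, 5.01, 6.38 and 6.26 in B220-2NBDG+ and 11.7, 13.7 and 16.2 in BMPC. Mcm3 (ENSMUSG00000041859.10, chr1:20802968-20820312) stood at 44.4, 50.2 and 31.2 TPM in the B220+2NBDG- replicates, 12.3, 21.1 and 20.2 in B220-2NBDG-, 13.2, 22.3 and 18.4 in B220+2NBDG+, 4.28, 5.35 and 6.36 in B220-2NBDG+ and 11.4, 13.4 and 9.64 in BMPC. Both had B220-2NBDG+ at the bottom without overlap and B220+2NBDG- at the top without overlap. The 2NBDG difference was -1.36 ± 0.22, adjusted p = 0.00316 for Mcm5 and -1.37 ± 0.18, adjusted p = 0.000704 for Mcm3, and the B220 difference -1.61 ± 0.22, adjusted p = 0.000639 and -1.38 ± 0.18, adjusted p = 0.000379. Mcm7 (ENSMUSG00000029730.16, chr5:138164583-138172422), the most abundant subunit, stood at 58.2, 65.6 and 36.2 TPM in the B220+2NBDG- replicates, 19.5, 30.7 and 31.9 in B220-2NBDG-, 24.7, 34.3 and 29.4 in B220+2NBDG+, 12.8, 11.2 and 13.3 in B220-2NBDG+ and 20.7, 19.8 and 20.7 in BMPC. Its B220+2NBDG- libraries lay above all others and its BMPC libraries were nearly equal, between those of B220-2NBDG+ and the intermediate groups apart from 1 intermediate library. Mcm6 stood at 24.6, 12.3 and 32.0 TPM in the B220+2NBDG- replicates, 15.6, 23.9 and 24.8 in B220-2NBDG-, 23.1, 18.8 and 19.3 in B220+2NBDG+, 13.3, 8.67 and 3.93 in B220-2NBDG+ and 3.29, 9.92 and 11 in BMPC, and within B220+2NBDG- alone its libraries spanned 12.3 to 32.0 TPM. Its interval for the 2NBDG difference ran from -1.38 to -0.02 before adjustment (-0.70 ± 0.32, adjusted p = 0.237).

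Among the 8 genes of origin firing, 5 fell with 2NBDG and 6 with B220. Cdc45 (ENSMUSG00000000028.15, chr16:18780447-18811987), which joins MCM and GINS in the active helicase, stood at 18.9, 24.0 and 18.8 TPM in the B220+2NBDG- replicates, 6.42, 9.05 and 9.27 in B220-2NBDG-, 7.47, 10.9 and 7.32 in B220+2NBDG+, 1.65, 3.49 and 3.12 in B220-2NBDG+ and 4.63, 6.37 and 4.75 in BMPC. It gave -1.25 ± 0.17, adjusted p = 0.000765 and -1.30 ± 0.17, adjusted p = 0.000356, and B220-2NBDG+ libraries were again below all others. Mcm10, which helps activate the helicase, Cdc7, the kinase that triggers firing, and the GINS subunits Gins1 and Gins2 also fell in both. The Cdc7 call for 2NBDG was near the threshold (-0.76 ± 0.20, adjusted p = 0.0391) and was lost in 11 of the alternatives. Dbf4, the activating partner of Cdc7, differed along B220 (-0.95 ± 0.14, adjusted p = 0.00102) and gave -0.25 ± 0.14, adjusted p = 0.353 along 2NBDG. The other GINS subunits, Gins3 and Gins4, were not called, and Gins4 kept 70.2% of its B220+2NBDG- level in B220-2NBDG+, while Gins1 kept 21.2%.

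In the polymerase and primase role 2 of 7 genes fell with 2NBDG and 5 of 7 with B220. Prim1 (ENSMUSG00000025395.14, chr10:128015168-128030037), the catalytic primase subunit that starts each new strand, stood at 28.3, 31.4 and 24.1 TPM in the B220+2NBDG- replicates, 10.8, 15.4 and 15.7 in B220-2NBDG-, 10.5, 18.2 and 14.7 in B220+2NBDG+, 7.98, 7.61 and 9.17 in B220-2NBDG+ and 9.55, 12.7 and 7.67 in BMPC. It fell along both axes (-0.80 ± 0.16, adjusted p = 0.00879 and -0.84 ± 0.16, adjusted p = 0.00518). Pole (ENSMUSG00000007080.14, chr5:110286306-110337474), the catalytic subunit of the leading strand polymerase, stood at 3.32, 2.80 and 5.16 TPM in the B220+2NBDG- replicates, 0.617, 1.15 and 1.53 in B220-2NBDG-, 1.91, 1.28 and 1.25 in B220+2NBDG+, 0.215, 0.421 and 0.650 in B220-2NBDG+ and 0.633, 1.74 and 0.951 in BMPC. Its levels were at or below 1.91 TPM outside B220+2NBDG-, and the B220 difference (-0.99 ± 0.18, adjusted p = 0.00396) held with 1 library left out, while the 2NBDG call (-0.73 ± 0.18, adjusted p = 0.0272) did not in every case. The partner subunits Pola1, Prim2 and Pole2 were called for B220 and not for 2NBDG, the call of Pola1 being lost in 6 of the alternatives, and Pola2 and Pold1, the catalytic subunit of polymerase delta, were not called. The median 2NBDG difference of the role was -0.36, the least of the 10 roles.

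Among clamp, clamp loader and single-strand binding genes 5 of 6 fell in both comparisons. Pcna (ENSMUSG00000027342.14, chr2:132249162-132253314), the sliding clamp, was the most abundant at 94.96, 112 and 89.6 TPM in the B220+2NBDG- replicates, 45.7, 56.9 and 56.6 in B220-2NBDG-, 53.8, 72.2 and 62.3 in B220+2NBDG+, 36.9, 41.2 and 42.2 in B220-2NBDG+ and 53.3, 50.03 and 46.1 in BMPC. Its fall was small but tight (-0.52 ± 0.10, adjusted p = 0.00823 and -0.76 ± 0.10, adjusted p = 0.000502), with the lowest B220+2NBDG- library at 89.6 TPM and the highest of all others at 72.2 TPM. Pclaf (ENSMUSG00000040204.6, chr9:65890237-65903266), a small protein that binds PCNA, moved far more and stood at 91.9, 115 and 104 TPM in the B220+2NBDG- replicates, 19.9, 35.1 and 34.9 in B220-2NBDG-, 25.5, 52.5 and 33.5 in B220+2NBDG+, 2.85, 8.10 and 7.51 in B220-2NBDG+ and 20.8, 19.1 and 9.60 in BMPC. It gave -1.84 ± 0.26, adjusted p = 0.00122 for 2NBDG and -2.12 ± 0.26, adjusted p = 0.000303 for B220, and kept 5.9% of its B220+2NBDG- level in B220-2NBDG+ where Pcna kept 40.5%. The loader subunits Rfc3 and Rfc4 and the single-strand binding subunit Rpa2 also fell in both, while Rfc5 was not called.

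Of the 2 genes that join Okazaki fragments, the short pieces of the lagging strand, 1 fell in both comparisons. Lig1 (ENSMUSG00000056394.17, chr7:13277283-13311433), the ligase that seals them, stood at 35.4, 38.1 and 40.8 TPM in the B220+2NBDG- replicates, 16.02, 12.5 and 12.4 in B220-2NBDG-, 12.7, 23.9 and 12.97 in B220+2NBDG+, 4.55, 6.72 and 6.04 in B220-2NBDG+ and 10.7, 12.8 and 12.4 in BMPC. It fell along both axes (-1.16 ± 0.16, adjusted p = 0.000794 and -1.38 ± 0.16, adjusted p = 0.000167). Fen1 (ENSMUSG00000024742.15, chr19:10199132-10204169), the flap nuclease that trims them and the third most abundant member, stood at 121, 107 and 81.6 TPM in the B220+2NBDG- replicates, 57.9, 78.7 and 88.8 in B220-2NBDG-, 80.5, 88.8 and 74.6 in B220+2NBDG+, 61.1, 58.1 and 68.4 in B220-2NBDG+ and 33.8, 45.4 and 56.8 in BMPC. Its spleen libraries overlapped between groups, except that those of B220-2NBDG+ lay below those of both B220+ groups. Its BMPC libraries lay below all spleen libraries, and neither spleen difference was called (-0.28 ± 0.15, adjusted p = 0.301 and -0.41 ± 0.15, adjusted p = 0.0990). Fen1 was lowest in BMPC, where Lig1 was above its B220-2NBDG+ level. Whether the 2 genes differ from each other in response was not tested.

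In nucleotide supply 3 of 5 genes fell in both comparisons, and Rrm2 differed most in TPM. Rrm2 (ENSMUSG00000020649.11, chr12:24708241-24714146), the small subunit of ribonucleotide reductase that is rate-limiting for making deoxynucleotides, was the most abundant of the 51 genes and stood at 490, 622 and 385 TPM in the B220+2NBDG- replicates, 93.9, 182 and 192 in B220-2NBDG-, 139, 250 and 181 in B220+2NBDG+, 29.6, 33.5 and 48.5 in B220-2NBDG+ and 58.0, 73.7 and 56.6 in BMPC. The 5 groups followed the order of the summed level, and B220-2NBDG+ kept 7.5% of the B220+2NBDG- mean. Its log2 fold change was -1.70 ± 0.21, adjusted p = 0.000515 for 2NBDG and -2.01 ± 0.21, adjusted p = 0.000112 for B220. The large subunit Rrm1 and thymidylate synthase Tyms also fell in both, and their transcript make-up is given below. The Rrm1 call for B220 was lost in 8 of the alternatives. The salvage enzyme Tk1 and the dUTPase Dut were not called. Tk1 stayed between 21.3 and 49.7 TPM over the 15 libraries, and Dut had a difference of -0.89 ± 0.29, adjusted p = 0.0951 with wide spread.

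**Figure D4:**
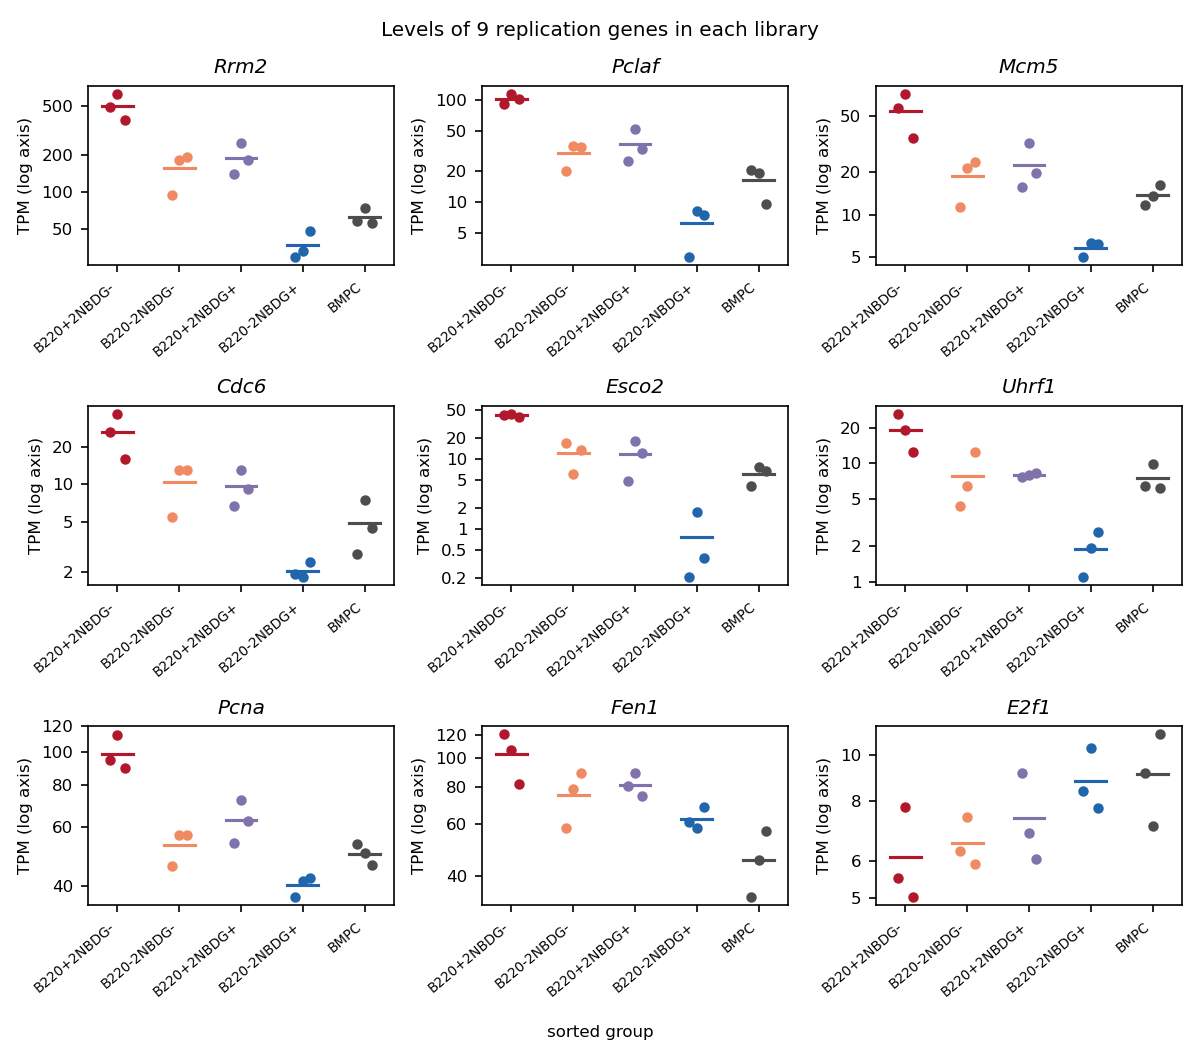
TPM (y axes, log scale) of 9 of the genes in each library of the 5 groups (x axes), with points for libraries and lines for group means. Rrm2 runs from 622 TPM down to 29.6 and Esco2 from 44.0 down to 0.206. Fen1 is lower in B220-2NBDG+ than in both B220+ groups and lowest in BMPC, and E2f1 has its highest mean in BMPC.

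Among genes that copy chromatin and its methylation 4 of 5 fell in both. Uhrf1 (ENSMUSG00000001228.14, chr17:56303321-56323486), which brings the maintenance methyltransferase to newly copied DNA, stood at 26.0, 19.0 and 12.4 TPM in the B220+2NBDG- replicates, 4.37, 6.49 and 12.5 in B220-2NBDG-, 7.72, 7.90 and 8.29 in B220+2NBDG+, 1.09, 1.92 and 2.63 in B220-2NBDG+ and 6.39, 9.80 and 6.18 in BMPC. Its B220-2NBDG+ libraries lay below all others, and the lowest B220+2NBDG- library (12.4) met the highest B220-2NBDG- one (12.5). The differences were -1.32 ± 0.24, adjusted p = 0.00522 and -1.46 ± 0.24, adjusted p = 0.00194. Dnmt1 (ENSMUSG00000004099.16, chr9:20907209-20959888), that methyltransferase, stood at 14.0, 17.0 and 9.64 TPM in the B220+2NBDG- replicates, 7.62, 8.86 and 11.5 in B220-2NBDG-, 11.5, 10.6 and 9.26 in B220+2NBDG+, 7.77, 6.75 and 6.40 in B220-2NBDG+ and 6.05, 10.3 and 8.50 in BMPC. Neither of its differences was called (-0.34 ± 0.16, adjusted p = 0.258 and -0.50 ± 0.16, adjusted p = 0.0718), and it kept 51.5% of its B220+2NBDG- level in B220-2NBDG+ where Uhrf1 kept 9.8%. The chromatin assembly subunits Chaf1a and Chaf1b and the chromatin factor Atad2 had calls near the threshold for 2NBDG (adjusted p = 0.0298, 0.0333 and 0.0286 by limma), which were lost in 9, 12 and 11 of the alternatives. For B220 the Chaf1a call was lost in 4 and the Chaf1b call in 11.

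Among the 6 E2F and cyclin genes 2 fell with 2NBDG and 5 with B220. E2f8 (ENSMUSG00000046179.17, chr7:48866429-48881596), a repressor of the family, stood at 4.61, 6.21 and 5.85 TPM in the B220+2NBDG- replicates, 1.22, 1.92 and 2.51 in B220-2NBDG-, 1.49, 2.74 and 1.82 in B220+2NBDG+, 0.391, 0.350 and 0.342 in B220-2NBDG+ and 1.5, 1.87 and 2.06 in BMPC. It fell along both axes (-1.10 ± 0.15, adjusted p = 0.000765 and -1.17 ± 0.15, adjusted p = 0.000311), with B220-2NBDG+ below and B220+2NBDG- above all other libraries. E2f2 (ENSMUSG00000018983.9, chr4:136172394-136196057), an activator, stood at 17.5, 16.4 and 19.7 TPM in the B220+2NBDG- replicates, 7.67, 11.2 and 10.5 in B220-2NBDG-, 13.9, 13.3 and 10.8 in B220+2NBDG+, 8.995, 8.24 and 7.29 in B220-2NBDG+ and 5.77, 8.13 and 7.94 in BMPC. It was lower in B220- cells (-0.70 ± 0.13, adjusted p = 0.00437) and gave -0.35 ± 0.13, adjusted p = 0.137 for 2NBDG. E2f1 (ENSMUSG00000027490.17, chr2:154559407-154569892), the best known activator, stood at 5.53, 7.79 and 5.02 TPM in the B220+2NBDG- replicates, 6.29, 7.40 and 5.89 in B220-2NBDG-, 9.20, 6.87 and 6.04 in B220+2NBDG+, 8.39, 10.4 and 7.74 in B220-2NBDG+ and 9.17, 7.10 and 11.1 in BMPC. Its B220+2NBDG- libraries overlapped those of each other group, and its differences, 0.31 ± 0.15, adjusted p = 0.270 for 2NBDG and 0.17 ± 0.15, adjusted p = 0.533 for B220, were above 0 but not called. Ccne2, a cyclin of S phase entry, fell in both comparisons and its relative Ccne1 was lower in B220- cells, a call that was lost in 13 of the alternatives. Ccna2 (ENSMUSG00000027715.9, chr3:36564865-36572150), the cyclin of S phase and G2, stood at 3.00, 2.90 and 11.1 TPM in the B220+2NBDG- replicates, 0.624, 1.21 and 1.76 in B220-2NBDG-, 1.30, 2.63 and 1.94 in B220+2NBDG+, 0.373, 0.596 and 0.297 in B220-2NBDG+ and 0.798, 0.649 and 0.346 in BMPC. It was lower in B220- cells (-1.23 ± 0.26, adjusted p = 0.0101), and replicate 3 of B220+2NBDG- stood far above the other libraries. The call ended when only protein-coding transcripts were counted (adjusted p = 0.062, limma).

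The largest difference of all 51 genes in both spleen comparisons was that of Esco2, in the role of fork checkpoint and cohesion. Esco2 (ENSMUSG00000022034.10, chr14:65819038-65833994), the acetyltransferase that fixes cohesin on sister chromatids during S phase, stood at 42.6, 44.0 and 40.5 TPM in the B220+2NBDG- replicates, 17.2, 6.17 and 13.3 in B220-2NBDG-, 4.94, 18.1 and 12.3 in B220+2NBDG+, 0.206, 1.74 and 0.387 in B220-2NBDG+ and 4.15, 7.74 and 6.74 in BMPC. The B220+2NBDG- libraries were close to each other and above all others, the intermediate groups spread between 4.94 and 18.1 TPM, and the B220-2NBDG+ libraries were the lowest. It gave -2.40 ± 0.31, adjusted p = 0.000654 for 2NBDG and -2.30 ± 0.31, adjusted p = 0.000502 for B220, and kept 1.8% of the B220+2NBDG- level in B220-2NBDG+. These levels rest on few reads, with 4, 5 and 7 estimated reads in B220-2NBDG+ against 224.5, 323.2 and 198.5 in B220+2NBDG-, and 82.3% of its TPM sat on Esco2-205, a protein-coding transcript of 326 nt. On estimated reads scaled to the library total, which do not weight by length, the differences were -1.94 ± 0.28 (adjusted p = 0.000509) and -1.92 ± 0.28 (adjusted p = 0.000371). Clspn, an adaptor of the replication checkpoint, fell in both as well, by 1.48 and 1.45 on the log2 scale.

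After immunoglobulin genes were set aside, the interaction of 2NBDG and B220 called 0 members by limma, and 0.0267% of all genes. At an unadjusted p under 0.05 there were 2 members, Pole2 (0.82 ± 0.30) and Rfc3 (0.43 ± 0.19), with adjusted p of 0.745 and 0.865. Of all 11246 tested genes, 623 were under that threshold. The median interaction of the members was 0.04 and that of all genes -0.10. The 95% intervals stayed within 1 log2 unit of 0 for 29 of the 51, and for 0 within 0.5, so smaller interactions were not detectable. On TPM as deposited, where immunoglobulin genes are kept and all other values are 11.2 to 29.3 times smaller, 9 members were called with a positive interaction. The share of all genes called in that setting is not given here, so the 9 are not read as a result about the members.

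The intermediate spleen groups, B220-2NBDG- and B220+2NBDG+, differ on both sort axes, and 0 members were called between them by limma, against 1.36% of all genes. Genes called lower in B220-2NBDG- were 0.08% of all. An unadjusted p under 0.05 was reached by 855 of the 11246 tested genes. Dbf4 was the member with an unadjusted p under 0.05, at 4.12, 3.29 and 5.58 TPM in the B220+2NBDG- replicates, 1.46, 1.56 and 2.20 in B220-2NBDG-, 3.29, 4.41 and 2.73 in B220+2NBDG+, 1.25, 1.55 and 1.05 in B220-2NBDG+ and 1.52, 1.5 and 1.55 in BMPC. Its B220-2NBDG- libraries lay below its B220+2NBDG+ libraries, and the difference was -0.70 ± 0.20, adjusted p = 0.161. In 4 members (Dbf4, Prim2, Atad2 and Ccne1) the B220-2NBDG- libraries were lower without overlap, and in 0 higher, where 8.4% of all genes were lower and 5.98% higher in this way. The members' median difference was -0.13 and that of all genes -0.06. For 44 of the 51 the 95% interval lay within 1 log2 unit of 0, and for 3 within 0.5, so smaller differences were not detectable for most.

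BMPC carried more of some replication transcripts than the spleen group of the same phenotype. Against spleen B220-2NBDG+, 4 of the 51 genes were higher and 0 lower by limma, where 1.03% of all genes were higher and 0.889% lower. They were Esco2 (2.08 ± 0.44, adjusted p = 0.0289), Uhrf1 (1.57 ± 0.34, adjusted p = 0.0312), E2f8 (1.04 ± 0.21, adjusted p = 0.0199) and Lig1 (0.95 ± 0.22, adjusted p = 0.0458). Each had its 3 BMPC libraries above the 3 B220-2NBDG+ libraries in the values given above, and below all B220+2NBDG- libraries. For Esco2 the estimated reads were 56.9, 50.9 and 9 in the BMPC replicates against 4, 5 and 7 in B220-2NBDG+. In replicate 3 its TPM thus differed far more between the groups than its reads. In 17 members the BMPC libraries were higher without overlap and in 1, Fen1, lower without overlap, where 4.62% of all genes were higher and 19.1% lower in this way. At an unadjusted p under 0.05 there were 15 of the 51 members, of which Mcm2 and Fen1 were lower, and 1893 of all 11246 tested genes. The members' median log2 fold change was 0.26 and that of all genes -0.18. Each of the 4 calls was lost in 6 to 10 of the alternatives, all 4 on TPM as deposited, and leaving out 1 library gave 0 to 4 calls. With BMPC replicate 2 or B220-2NBDG+ replicate 1 left out there were 0, with B220-2NBDG+ replicate 2 or 3 left out 1, with BMPC replicate 1 left out 2, and with BMPC replicate 3 left out 3 higher and 1, Mcm2, lower.

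Markers of other cells also differed between these organs. Summed neutrophil markers were 5506, 6370 and 9312 TPM in BMPC and 64.3 to 311 in B220-2NBDG+, and the granulocyte precursor genes Elane and Mpo stood at 101 to 358 and 85.6 to 368 TPM in BMPC against at most 8.42 and 7.26. Their part in the BMPC values of the replication genes was not tested. Among spleen groups the summed T cell markers were highest where the members were highest. Cd3e, Cd3d, Cd3g, Trac, Lck and Lat had their highest library in B220+2NBDG-. Cd4 did not, at 0.723 to 2.29 TPM there and 2.13 to 5.79 in B220+2NBDG+, and Cd8a was at or below 0.539 TPM in every library. Within B220+2NBDG- the replicates held 508, 292 and 105 TPM of T cell markers and summed member levels of 1998, 2221 and 1672 TPM. Erythroid markers in the same replicates summed to 69.6, 66.8 and 2072 TPM. Germinal centre B cell markers summed to 86.6 to 102 TPM in B220+2NBDG- and 47.3 to 83.7 in the other groups, with Bcl6 at or below 2.70 TPM in every library. Fas was the largest part of the sum (58.9 to 71.1 TPM in B220+2NBDG-). Rgs13 stood at 14.2, 17.6 and 6.46 TPM in the B220+2NBDG- replicates and at most 4.25 in any other library. Gcsam stood at 6.04 to 20.3 TPM in BMPC and at most 2.81 in spleen. B cell markers ran from 1278 to 2479 TPM in B220+2NBDG- and from 1069 to 1282 in B220-2NBDG+. Cd79b was the largest part (927 to 1303 and 938 to 1065). Cd22 ran from 44.7 to 267 and from 8.65 to 50.8, and Pax5 from 4.89 to 31.5 and from 1.82 to 2.39. Macrophage, monocyte and dendritic cell markers summed to 144 to 449 TPM in B220+2NBDG- and 235 to 942 in B220-2NBDG+. They were highest on average in B220+2NBDG+, at 408 to 1855 TPM, and B220-2NBDG- held 175 to 696. What these cells add to the differences in spleen was not tested.

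For most members the level came from protein-coding transcripts. The 51 genes have 132 transcripts in the table, and 43 genes drew at least 95% of their TPM from protein-coding ones. Mcm2 drew 26.0%, since 70.0% of its TPM sat on Mcm2-203, a 273 nt transcript annotated as nonsense-mediated decay, a length at which few reads make many TPM. Rrm1 drew 29.9%, with 39.6% on Rrm1-202 (747 nt) and 30.5% on Rrm1-206 (492 nt), both annotated as nonsense-mediated decay. Tyms drew 57.6%, with 34.8% on Tyms-205 (618 nt) of the same annotation.

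Counting protein-coding transcripts only, Mcm2 averaged 12.4 ± 4.9 TPM in B220+2NBDG- (SD, n = 3, as for the means that follow). The intermediate groups averaged 7.76 ± 2.4 (B220-2NBDG-) and 8.16 ± 1.4 (B220+2NBDG+), and the lowest means were 5.01 ± 0.88 for B220-2NBDG+ and 4.04 ± 0.22 for BMPC. Its BMPC difference then shrank from -1.47 ± 0.50 (adjusted p = 0.152) to -0.24 ± 0.27 (adjusted p = 0.669), and its spleen differences were still not called (limma). On estimated reads scaled to the library total, which do not weight by transcript length, Mcm2 was lower in B220- cells (-0.60, adjusted p = 0.0464 by limma). Rrm1 stayed lower in both spleen comparisons on coding transcripts (-0.68 ± 0.15, adjusted p = 0.0187 and -0.88 ± 0.15, adjusted p = 0.00321). Tyms stayed lower with 2NBDG (-1.18 ± 0.25, adjusted p = 0.0153) but lost its B220 call (-0.67 ± 0.25, adjusted p = 0.124).

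**Figure D5:**
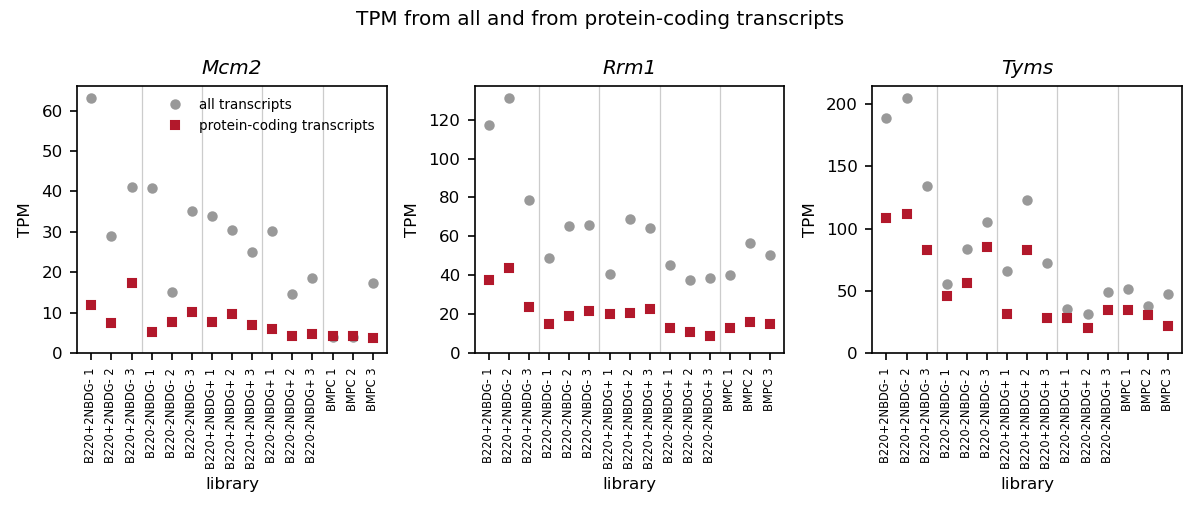
TPM (y axes) of Mcm2, Rrm1 and Tyms in each library (x axes), summed over all transcripts (grey) and over protein-coding transcripts (red). For Mcm2 the grey points reach 63.1 TPM while its protein-coding transcripts stay at or below 17.4 TPM, and 2 of the BMPC libraries have both near 4 TPM.

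Outside the 51 genes, a list of 57 other replication and nucleotide genes (56 tested) was also examined. In it 18 were lower and 0 higher with 2NBDG, where 4.44% of all tested genes were lower, and 21 lower and 0 higher with B220, where 5.85% were lower. The medians were -0.37 and -0.42. Top2a, the topoisomerase that untangles copied chromosomes, had the largest 2NBDG difference (-1.69 ± 0.20, adjusted p = 0.000510), followed by the exonuclease Exo1 (-1.27 ± 0.31, adjusted p = 0.0266) and the histone chaperone Asf1b (-1.18 ± 0.20, adjusted p = 0.00329). In BMPC, Top2a (1.23 ± 0.29, adjusted p = 0.0473) and Asf1b (1.38 ± 0.28, adjusted p = 0.0227) were higher than in B220-2NBDG+. Asf1b averaged 18.8 ± 2.0 TPM in BMPC against 6.69 ± 1.3 in B220-2NBDG+ (SD, n = 3 each). Whether this list differs from the 51 genes was not tested.

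Of 35 genes that control entry into S phase (31 tested), 3 were lower and 0 higher with 2NBDG, where 4.44% of all genes were lower: Cks1b, a cyclin-dependent kinase subunit (-1.04 ± 0.15, adjusted p = 0.00112), Foxm1, a factor of late cell cycle genes (-0.84 ± 0.16, adjusted p = 0.00605), and the repressor E2f7 (-0.61 ± 0.17, adjusted p = 0.0490). With B220, 7 were lower, where 5.85% of all genes were, among them the S phase kinase Cdk2 (-0.82 ± 0.15, adjusted p = 0.00345). The kinase inhibitor Cdkn1a was the 1 gene of the list that was higher in B220- cells, where 2.8% of all genes were (0.57 ± 0.15, adjusted p = 0.0338), at means of 2.78 ± 0.44 and 2.79 ± 0.63 TPM in the B220+ groups and 4.58 ± 1.4 and 4.70 ± 0.32 in the B220- groups (SD, n = 3 each). The list's medians were -0.20 and -0.25, and 0 of its genes were called in BMPC by limma, with 4 at an unadjusted p under 0.05. Of all 11246 tested genes, 1893 were under 0.05 unadjusted in the BMPC comparison.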

How the data were processed

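Libraries were made with Clontech Smartseq and Nextera reagents from RNA of NucleoSpin XS columns, per the labels' protocols, which name no strand marking. The authors quantified transcripts with Salmon 0.9.1 on GRCm38.p6, per the submitters' processing notes, and deposited TPM for 63553 transcripts in 15 library columns. The same table holds transcript lengths and effective lengths. No source used here gives Salmon's settings.

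TPM were summed over transcripts to 22339 genes by the gene names deposited with them. GENCODE M21, which holds 99.7% of the transcripts, gave the gene and transcript types. The 262 genes of the immunoglobulin loci were then taken out and each library scaled back to its full TPM total. The 11246 genes that reached 1 TPM in 3 or more libraries were tested on log2(TPM + 1) in a single limma 3.58.1 model of the 5 group means (lmFit, contrasts.fit, eBayes with trend, R 4.3.3), which was tested on simulated data. A call is an adjusted p (Benjamini-Hochberg, per comparison) under 0.05. The 5 comparisons were 2NBDG and B220, each averaged over the other, their interaction, the intermediate spleen groups, and BMPC against spleen B220-2NBDG+. Estimated reads were recovered as TPM times effective length, scaled to a fitted depth for each library. The depth was picked so that many low values of genes with a single listed transcript came within 0.05 of whole numbers. That share reached 72.1% to 74.8% per library and, being what was fitted, is not a check on the estimates.

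The 51 members, their roles and the other gene lists were chosen with earlier results of these data known. Values in every library are given for the most abundant member of each role, for those with the largest 2NBDG and B220 differences, and for members called in the last 3 comparisons. Mcm2, Mcm6, Dbf4, Rrm1, Tyms, E2f1, Cdk2 and the other genes named with values outside this rule were chosen after their values were seen. Alternatives were TPM as deposited, median-of-ratios scaling, a pseudocount of 0.1, no filter, a replicate block and each library left out. Protein-coding transcripts only, estimated reads scaled to the library total, and replicates 1 and 2 only were added after seeing the data.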

Additional observations from a re-analysis of the deposited data

How the results depend on the processing

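The 31 members lower with 2NBDG became 50 on TPM as deposited and 17 with replicates 1 and 2 only. The other settings gave 29 to 33, and leaving out 1 of the 12 spleen libraries 25 to 33. The 38 lower with B220 became 34 to 50 over all settings and 33 to 39 with 1 library left out. On TPM as deposited the median 2NBDG difference of all genes moved from -0.04 to -0.21 and the BMPC one from -0.18 to 0.01. The interaction called 0 members in every setting except TPM as deposited (9), where Cdc45 turned from -0.14 to 0.57 (adjusted p = 0.0483, limma). The intermediate spleen groups gave 0 in every setting. For BMPC the 4 calls became 0 on TPM as deposited, 1 with no filter, 7 with the replicate block, 7 on estimated reads scaled to the library total, 1 with replicates 1 and 2 only, and 0 to 4 with 1 of the 6 compared libraries left out. The shares of all tested genes called under these settings are not given here, so the counts show only how the members' calls moved. The cause of these changes was not tested. With the replicate block the counts for 2NBDG and B220 stayed at 31 and 38. The labels do not say that a replicate number marks a shared mouse or day, so the numbers were not taken as pairs. Deviations of same-numbered spleen libraries nonetheless correlated above 0.1 in 16 of 18 pairs (0.089 to 0.415). Those of differently numbered spleen libraries did so in 0 of 36 (-0.336 to 0.0597). The main model leaves such a shared part out. All 12 spleen libraries correlated best with their own number, a hint from the data and not the design. Of the 12 same-numbered pairs of a BMPC and a spleen library, 0 were above 0.1. Depth limits Chaf1a, Orc1, Pola1, Pole and Ccna2, which reached 1 TPM in 4 to 9 of the 15 libraries. It also limits Esco2, E2f8 and Clspn, whose B220-2NBDG+ libraries held 4 to 7, 8 to 9.8 and 9 estimated reads.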
